A study of Mus musculus with 12 samples.

Results

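The 60 protein-coding genes whose symbols mark them as chemokines or chemokine receptors were examined in the injured spinal cord of female mice. They were taken by symbol (Ccl, Cxcl, Cx3cl, Xcl, Ccr, Cxcr, Xcr or Ackr followed by a digit) from a table of 57180 genes. There were 38 ligands, 18 signalling receptors and 4 atypical receptors, which bind chemokines without the usual signalling. Cx3cr1, the receptor of Cx3cl1, falls outside that naming pattern, and Cxcl11 carries a loss-of-function mark in the table's gene type, so neither is among the 60. All 12 mice were C57BL/6J wild type females with a clip-compression injury at T9-T10, sampled 7 days later as bulk tissue with margins of about 0.5 cm on each side of the lesion. The 4 SCI7 mice had the injury alone, the 4 OVX2_SCI7 mice were ovariectomised 2 weeks before injury, and the 4 OVX8_SCI7 mice were ovariectomised 8 weeks before injury. The labels give an age of 8 weeks for every mouse without saying at which step, so age at injury and time since ovariectomy cannot be told apart. No uninjured or sham-operated mice were analysed here, so the values say how ovariectomised and intact injured mice differed and not what the injury changed.

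Chemokines are small secreted proteins that bind G protein-coupled receptors on leukocytes and guide them along gradients into tissue. After spinal cord injury, ligands of Ccr2 such as Ccl2 draw blood monocytes, ligands of Cxcr2 such as Cxcl1 and Cxcl2 draw neutrophils, and the interferon-induced ligands Cxcl9 and Cxcl10 draw Cxcr3-bearing T and NK cells. Cxcl12 and Cx3cl1 are also present in the intact nervous system, where stromal and neuronal cells make them. In bulk tissue, fewer cells of a type and less RNA per cell cannot be told apart.

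Libraries held between 18222809 and 31781728 counts, with replicate 2 of OVX8_SCI7 the deepest. A count of 3 corresponded to between 0.0931 and 0.164 CPM (the count scaled to a common library size, by the TMM method), and members below that level are at the limit of counting. Astrocyte, oligodendrocyte and neuron markers were present in every library, as in spinal cord tissue. The summed level of 6 fibroblast and meningeal markers (Col1a1, Dcn and others) lay between 1043 and 7250 CPM in SCI7, between 899 and 27346 CPM in OVX2_SCI7 and between 7834 and 14878 CPM in OVX8_SCI7. Replicate 3 of OVX2_SCI7 held the 27346 CPM, and the lowest sums were those of replicate 3 of SCI7 and of replicates 1 and 2 of OVX2_SCI7 (899 and 2275 CPM). Libraries also differed in how counts depended on the GC content of transcripts. Spearman's rho across 15087 genes between GC content and a library's deviation from the mean lay between -0.813 and -0.493 in SCI7, between -0.411 and 0.512 in OVX2_SCI7 and between 0.155 and 0.837 in OVX8_SCI7. Replicate 1 of OVX2_SCI7 held the -0.411. The share of counts from mitochondrial genes ran with the groups too, at 5.35% to 9.35% in SCI7, 2.36% to 8.33% in OVX2_SCI7 and at most 3.36% in OVX8_SCI7. Replicate 1 of OVX2_SCI7 held the 8.33%, and the part of this share in the results below was not tested. Because the GC trend runs with the groups, log2 differences of members are also given from a fit that corrects every library for its own dependence on transcript GC and length, called the GC and length offset.

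The family was represented at high level by a few genes. Compared per length in TPM, the deposited level scaled by transcript length and library size, 16 members averaged at least 10 TPM over the 12 libraries, 17 lay between 1 and 10 TPM and 27 stayed under 1 TPM. Cxcl12, the stromal ligand of Cxcr4, was highest at 74.7 TPM, followed by Cx3cl1 at 59.3 TPM and Cxcl14, a constitutively expressed chemokine, at 53.2 TPM. Ccl6 (45.7 TPM) and Ccl9 (31.6 TPM), rodent chemokines of myeloid cells, and the membrane-bound chemokine Cxcl16 (37.4 TPM) came next among the ligands. Cxcr4 (45.6 TPM) was the most abundant signalling receptor, and Ackr1 (36.4 TPM), a chemokine-binding protein of venular endothelium, the most abundant atypical one. Neighbours in this order lay within each other's spread over libraries. For example, Cxcl12 had 60.4 TPM ± 15.4 (SD, n = 4) in SCI7 and Cx3cl1 53.9 TPM ± 14.5 (SD, n = 4). The 3 highest ligands made up 38.7% of the ligands' TPM and the 8 highest 73.1%, so the sum of ligands is mostly a sum of these genes. That sum was 373 TPM ± 57.5 in SCI7, 542 TPM ± 164 in OVX2_SCI7 and 536 TPM ± 31.4 in OVX8_SCI7 (SD, n = 4 each). The OVX8_SCI7 libraries (495 to 571 TPM) all lay above the SCI7 libraries (298 to 432 TPM), whereas OVX2_SCI7 (360.1 to 708 TPM) overlapped both. These sums carry no GC and length offset, and the part of the GC trend in them was not tested. In CPM, OVX8_SCI7 and SCI7 did not overlap in 39.1% of all genes tested. The 22 receptors of both kinds summed to 123 TPM ± 34.6, 121 TPM ± 39.5 and 137 TPM ± 34.9 in the same order (SD, n = 4 each), and these ranges overlapped.

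**Figure D1:**
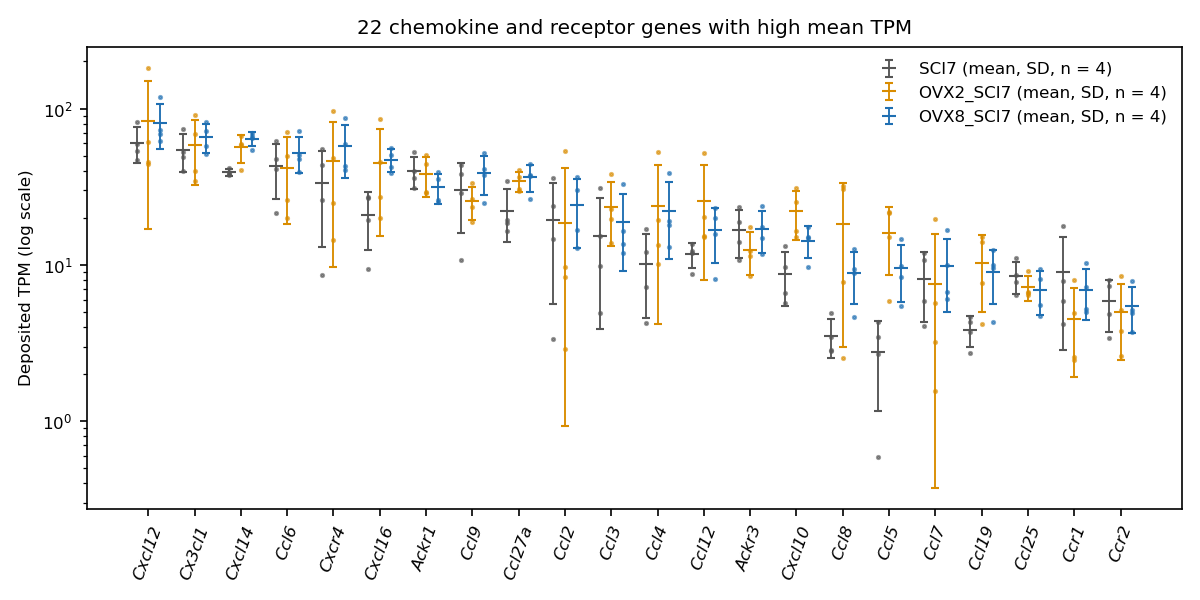
Deposited TPM (log axis) of 22 of the members with the highest mean, with 1 point per library and the mean and SD of each group (n = 4). Lower whiskers that would pass 0 are shortened. Cxcl12, Cx3cl1 and Cxcl14 lead, and most groups overlap, with Ccl5 and Ccl8 among the members whose group means lie furthest apart.

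Promoter sequence is shown for 4 ligands on which the comparisons below turn: Cxcl14 and Ccl28, which passed the test in OVX8_SCI7, and Cxcl9 and Cxcl10, which were among the smallest p-values in OVX2_SCI7. Each is the 250 bases before the annotated start, from RefSeq on GRCm38.p6, an earlier build than the authors' GRCm39. They are written 5' to 3' in the direction of transcription. Capitals mark matches on either strand to GGANNTTCC, a pattern of NF-kappaB sites, or to AAANNGAAA, a pattern of interferon response elements.
Cxcl14 (chr13:56296552-56296801, minus strand): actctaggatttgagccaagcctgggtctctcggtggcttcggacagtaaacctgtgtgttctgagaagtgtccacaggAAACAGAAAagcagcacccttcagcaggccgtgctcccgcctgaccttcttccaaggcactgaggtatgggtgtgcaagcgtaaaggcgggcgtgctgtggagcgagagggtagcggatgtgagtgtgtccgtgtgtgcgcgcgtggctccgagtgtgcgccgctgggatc
Ccl28 (chr13:119623569-119623818, plus strand): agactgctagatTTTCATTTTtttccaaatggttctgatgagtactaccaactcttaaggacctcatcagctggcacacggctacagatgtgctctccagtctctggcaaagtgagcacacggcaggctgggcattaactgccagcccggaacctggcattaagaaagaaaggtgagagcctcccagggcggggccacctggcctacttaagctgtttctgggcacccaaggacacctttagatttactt
Cxcl9 (chr5:92328080-92328329, minus strand): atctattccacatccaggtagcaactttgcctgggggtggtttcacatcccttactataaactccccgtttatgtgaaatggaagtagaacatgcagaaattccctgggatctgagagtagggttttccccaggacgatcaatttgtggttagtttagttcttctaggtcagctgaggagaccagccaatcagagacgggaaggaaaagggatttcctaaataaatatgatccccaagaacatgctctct
Cxcl10 (chr5:92348890-92349139, minus strand): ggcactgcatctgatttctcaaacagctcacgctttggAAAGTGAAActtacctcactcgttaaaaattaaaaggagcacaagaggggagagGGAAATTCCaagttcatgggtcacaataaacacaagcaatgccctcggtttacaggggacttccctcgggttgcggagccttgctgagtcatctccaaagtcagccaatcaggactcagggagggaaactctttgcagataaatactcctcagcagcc
Cxcl10 held 1 match to each pattern, Cxcl14 and Ccl28 held 1 interferon-type match each, and the Cxcl9 window held neither. Of the 60 members, 46 were in the promoter table, with 53 promoters. The NF-kappaB pattern was in 7 of these 53 (13.2%), those of Ccl1, Ccl12, Ccr3, Cxcl1, Cxcl2, Cxcl3 and Cxcl10, against 3.59% of all 32851 promoters. The interferon pattern was in 6 of 53 (11.3%), against 9.37% of all promoters. A match describes the letters in this window and is not a measured binding site.

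A comparison of OVX8_SCI7 with SCI7 asked how the lesion of mice ovariectomised 8 weeks before injury differed from that of intact mice. The receptor Ccr10 and the ligand Cxcl14 were higher, and the ligands Ccl25 and Ccl28 were lower. These 4 of the 36 members with enough counts to be tested (11.1%) passed the threshold of an adjusted p of 0.05 in edgeR's quasi-likelihood test, where 27.5% of all 17820 genes did. The median log2 difference of the 36 was 0.34, against 0.01 over all genes tested, and with the GC and length offset these medians were 0.60 and -0.06. For both directions together, the groups did not overlap in 8 of 36 members (22.2%), against 39.1% of all genes. An unadjusted p under 0.05 was found for 10 of the 36 (27.8%), against 43.2% of all genes.

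Ccr10, the receptor of Ccl27a and Ccl28 on skin- and mucosa-homing lymphocytes, was a low-level transcript. It stood at 0.317, 0.430, 0.491 and 0.555 CPM in the SCI7 libraries and at 1.37, 1.52, 1.299 and 1.24 CPM in those of OVX8_SCI7. All 4 OVX8_SCI7 libraries lay above all 4 of SCI7. The log2 difference was 1.59 (SE 0.33), with an adjusted p of 0.0143. With the GC and length offset it was 0.85 (SE 0.26) with an adjusted p of 0.176, and at 58.0% Ccr10 has the highest GC content of the members tested. The summed level of 6 B and plasma cell markers lay between 9.39 and 20.2 CPM in SCI7, between 19.4 and 31.7 CPM in OVX2_SCI7 and between 24.8 and 42.5 CPM in OVX8_SCI7. Of the 3 with enough counts, 2 passed the test as higher in OVX8_SCI7 than in SCI7, where 27.5% of all genes passed. With the offset 0 of the 3 passed, and 0 of all 17820 genes did. Ms4a1 was at 0 in 1 library. The part of these markers in the level of Ccr10 was not tested.

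Ccl28, a mucosal ligand of Ccr10, differed the other way. It had 1.21, 1.99, 2.94 and 3.13 CPM in SCI7 and 0.749, 0.807, 1.15 and 0.540 CPM in OVX8_SCI7. These groups did not overlap, although the highest OVX8_SCI7 library and the lowest SCI7 library lay close together. The log2 difference of -1.51 (SE 0.38) had an adjusted p of 0.0186. It was -0.79 (SE 0.41) with the offset, where the adjusted p was 0.379, and its transcript has 40.8% GC. Ccl27a, the other ligand of Ccr10, did not pass the test, with 5.82 CPM ± 1.52 in SCI7 and 7.29 CPM ± 1.34 in OVX8_SCI7 (SD, n = 4 each). The OVX2_SCI7 libraries of Ccl28 held 1.59, 1.21, 0.911 and 0.570 CPM, and their mean lay between those of the other groups. On the deposited TPM scale SCI7 (0.510 to 1.71 TPM) and OVX8_SCI7 (0.270 to 0.570 TPM) overlapped.

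Cxcl14 was the most abundant of the 4. Its SCI7 libraries held 42.6, 34.7, 38.1 and 33.3 CPM and its OVX8_SCI7 libraries 69.1, 65.9, 60.5 and 49.0 CPM. Every OVX8_SCI7 library was above every SCI7 library. The log2 difference was 0.72 (SE 0.15), with an adjusted p of 0.0143. With the offset it came to 0.13 (SE 0.19) and an adjusted p of 0.767, the highest of the 4, and the transcript has 55.4% GC.

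Ccl25, the ligand of the gut-homing receptor Ccr9, was lower in OVX8_SCI7. It had 4.60, 6.66, 7.85 and 5.55 CPM in SCI7 and 3.83, 2.51, 3.55 and 3.51 CPM in OVX8_SCI7, again without overlap. The log2 difference was -0.88 (SE 0.21; adjusted p of 0.0161), and it remained at -0.77 (SE 0.28) with the offset, where the adjusted p was 0.241. On the deposited TPM scale the groups overlapped, with 8.47 TPM ± 2.00 in SCI7 and 6.94 TPM ± 2.18 in OVX8_SCI7 (SD, n = 4 each). Exons of Ccl25 share 2.74% of their length with those of Elavl1 on the opposite strand.

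Cxcr2, the main chemokine receptor of neutrophils, lay next to the threshold. It had 1.58, 2.63, 2.67 and 3.23 CPM in SCI7 and 0.793, 1.33, 0.749 and 1.296 CPM in OVX8_SCI7, without overlap. Its log2 difference was -1.27 (SE 0.44) with an adjusted p of 0.0507, and -0.97 (SE 0.45) with the offset. The summed level of 8 neutrophil markers overlapped between these groups, at 116 to 141 CPM in SCI7 and 109 to 163 CPM in OVX8_SCI7, and 1 of the 7 tested was higher. The median log2 difference of the 7 was -0.23, or 0.04 with the offset, and their part in the level of Cxcr2 was not tested. The other members whose groups did not overlap were Cxcl16, Ccl5 and Cxcr3, each higher in OVX8_SCI7 without passing the test. Ccl5 and Cxcr3 were separated only by a narrow margin at the nearest libraries. No member kept an adjusted p under 0.05 with the GC and length offset, and none did without replicate 2 of OVX8_SCI7, where adjusted p-values of the 4 lay between 0.0573 and 0.0633. In both of these fits no gene of the whole table passed either, and DESeq2 without the offset called 8 members (22.2%), against 35.9% of all genes. Other cell type markers were called in this comparison as well, where 27.5% of all genes were. Of 6 skeletal muscle markers 2 were higher, of 6 microglia markers 1 was higher and 2 were lower, and 1 of 6 astrocyte markers was lower. Their part in the members' levels was not tested.

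**Figure D2:**
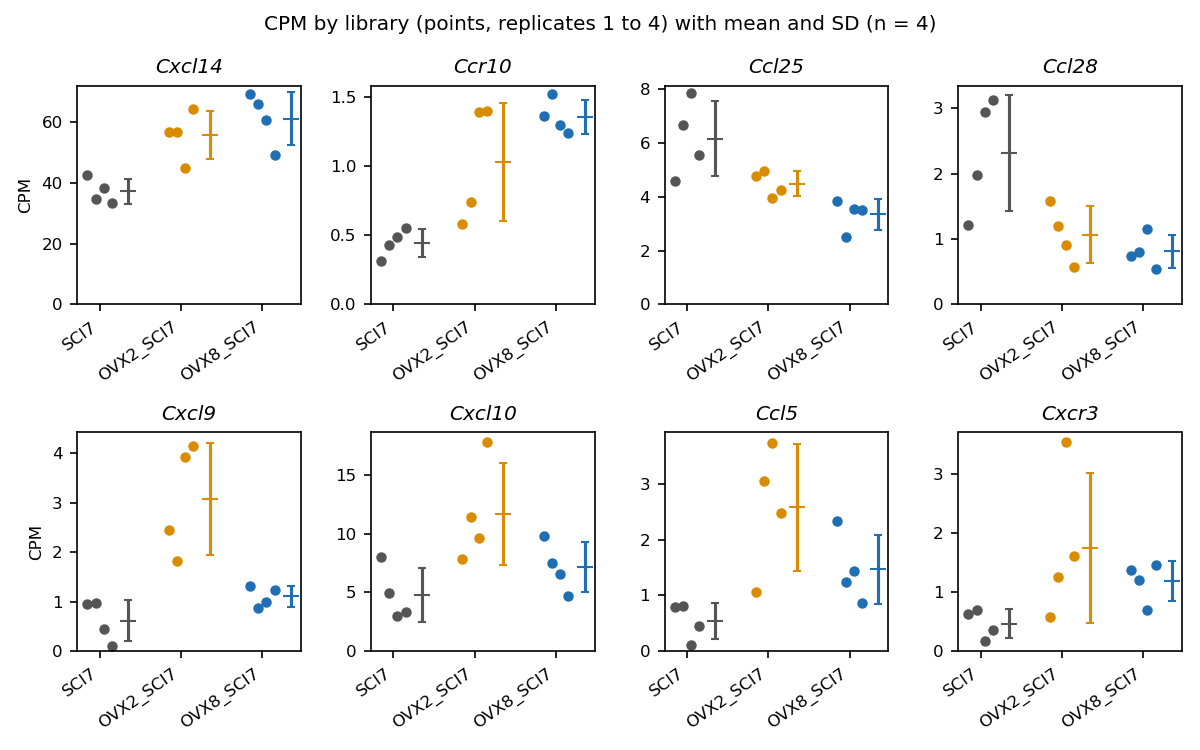
CPM of 8 members in every library (points in the order of replicates 1 to 4, with mean and SD, n = 4). The upper row holds the 4 members that passed the test in OVX8_SCI7, and the lower row holds Cxcr3, its ligands Cxcl9 and Cxcl10, and Ccl5. Cxcl9 is highest in OVX2_SCI7, whose 4 libraries (1.81 to 4.15 CPM) lie above those of both other groups, although in deposited TPM they overlap SCI7.

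A comparison of OVX2_SCI7 with SCI7 asked the same for an interval of 2 weeks. Cxcl9 and Ccl5 had the smallest p-values of the members, followed by Cxcl14, Ccr10 and Cxcl10, but no member passed the test. edgeR called 0 of 36 members and 0.0% of 17820 genes, whereas 13 members had an unadjusted p under 0.05 (36.1%), against 32.5% of all genes. Other tools called more, among members as among all genes. limma-voom called 2 members (Ccl5 and Cxcl9; 5.56%) and 5.01% of all genes. DESeq2 called 10 (27.8%) and 20.7%, and limma-voom with quality weights 18 of 36 and 54.4%. The median log2 difference of the 36 was 0.37, against 0.04 over all genes, and with the offset these were 0.58 and 0.02. The groups did not overlap in 4 members (11.1%), Cxcl9, Ccl5, Cxcl14 and Ccr10, against 12.4% of all genes. All 4 were higher in OVX2_SCI7, the direction of 6.13% of all genes, and 0 were lower, against 6.29%.

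Cxcl9, an interferon-induced ligand of Cxcr3, had 0.951, 0.967, 0.436 and 0.101 CPM in SCI7, 2.44, 1.81, 3.91 and 4.15 CPM in OVX2_SCI7 and 1.32, 0.869, 0.999 and 1.24 CPM in OVX8_SCI7. On this scale the OVX2_SCI7 libraries lay above all others, and those of OVX8_SCI7 overlapped SCI7. In deposited TPM, OVX2_SCI7 (1.26 to 2.24 TPM) overlapped SCI7 (0.0700 to 1.69 TPM, the highest in replicate 2). Between OVX2_SCI7 and SCI7 the log2 difference was 2.32 (SE 0.50) with an adjusted p of 0.0520. limma-trend gave 0.84 (SE 0.23) on log2(TPM + 1) and 1.72 (SE 0.54) on log2(TPM + 0.1). edgeR gave 2.80 (SE 0.48) with the offset, where the adjusted p was 0.0728. DESeq2 gave an adjusted p of 3.9e-04, and over 26 alternatives the adjusted p lay between 5.4e-07 and 0.357, under the threshold in 7.

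Ccl5, a ligand of Ccr1 made by T cells and activated glia, had 0.792, 0.806, 0.109 and 0.454 CPM in SCI7. It had 1.06, 3.06, 3.75 and 2.49 CPM in OVX2_SCI7 and 2.34, 1.24, 1.45 and 0.864 CPM in OVX8_SCI7. Both ovariectomised groups lay above SCI7 in every library and overlapped each other. The nearest libraries were close, at 0.806 CPM in SCI7 and 0.864 CPM in OVX8_SCI7. The log2 difference of OVX2_SCI7 from SCI7 was 2.25 (SE 0.53; adjusted p of 0.0520), or 1.75 (SE 0.44) with the offset.

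Cxcl10, the other interferon-induced Cxcr3 ligand among the members, had 7.98, 4.94, 2.94 and 3.28 CPM in SCI7 and 7.79, 11.4, 9.65 and 17.8 CPM in OVX2_SCI7. A single pair of libraries overlapped, replicate 1 of each group. The log2 difference was 1.29 (SE 0.36; adjusted p of 0.0565), or 1.19 (SE 0.29) with the offset, and 5.91% of its exon length is shared with Art3 on the opposite strand. In OVX8_SCI7 Cxcl10 had 9.83, 7.45, 6.59 and 4.64 CPM, which overlapped both other groups. Cxcr3 itself, found on activated T and NK cells, had 0.634, 0.698, 0.164 and 0.353 CPM in SCI7, 0.583, 1.25, 3.54 and 1.61 CPM in OVX2_SCI7 and 1.37, 1.21, 0.699 and 1.46 CPM in OVX8_SCI7. The highest SCI7 library (0.698 CPM) and the lowest OVX8_SCI7 library (0.699 CPM) were almost equal. Cxcr3 did not pass the test in any of these comparisons.

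T and NK cell markers are set beside these ligands. The summed level of 10 markers lay between 3.82 and 6.97 CPM in SCI7, between 7.10 and 16.5 CPM in OVX2_SCI7 and between 6.99 and 9.08 CPM in OVX8_SCI7, so both ovariectomised groups lay above SCI7, by a narrow margin at the nearest libraries. Of the 6 markers with enough counts, 0 passed edgeR's test in OVX2_SCI7 against SCI7, where 5 had an unadjusted p under 0.05. Over all genes these shares were 0.0% and 32.5%. In OVX8_SCI7 against SCI7, 1 passed, where 27.5% of all genes did. With the GC and length offset, 1 passed in OVX2_SCI7 and 0 in OVX8_SCI7, against 8 and 0 of all 17820 genes. Each time the marker that passed was Cd8a, which marks cytotoxic T cells and is named here after its values were seen. It averaged 0.0527 CPM ± 0.0432 in SCI7, under the level of 3 counts, 0.910 CPM ± 0.216 in OVX2_SCI7 and 0.510 CPM ± 0.239 in OVX8_SCI7 (SD, n = 4 each). Between OVX2_SCI7 and SCI7 its adjusted p was 0.0520 without the offset and 0.0276 with it, and between OVX8_SCI7 and SCI7 it was 0.0143 and 0.0894. Cd3d and Cd8a were at 0 in at least 1 library. Their part in the levels of Cxcl9, Cxcl10, Ccl5 and Cxcr3 was not tested.

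Cxcl14 and Ccr10 were the remaining members among the 5 smallest p-values of OVX2_SCI7 against SCI7. Cxcl14 had 56.6, 56.8, 44.9 and 64.2 CPM in OVX2_SCI7, with a log2 difference of 0.58 (SE 0.15; adjusted p of 0.0524). Ccr10 had 0.583, 0.743, 1.39 and 1.40 CPM, with a log2 difference of 1.19 (SE 0.33; adjusted p of 0.0563). With the offset these differences were 0.17 (SE 0.19) and 0.57 (SE 0.27). In deposited TPM the libraries of Cxcl14 overlapped (37.5 to 41.8 TPM in SCI7 and 40.4 to 66.8 TPM in OVX2_SCI7). The comparison shares its SCI7 libraries with that of OVX8_SCI7, so like values in both are not independent. One library set the number of calls: without replicate 1 of OVX2_SCI7, 12 of the 39 members then tested passed (30.8%), against 34.7% of all genes, and without replicates 1 and 2, 14 of 40 did, against 38.8%. Both shares are near those of all genes.

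**Figure D3:**
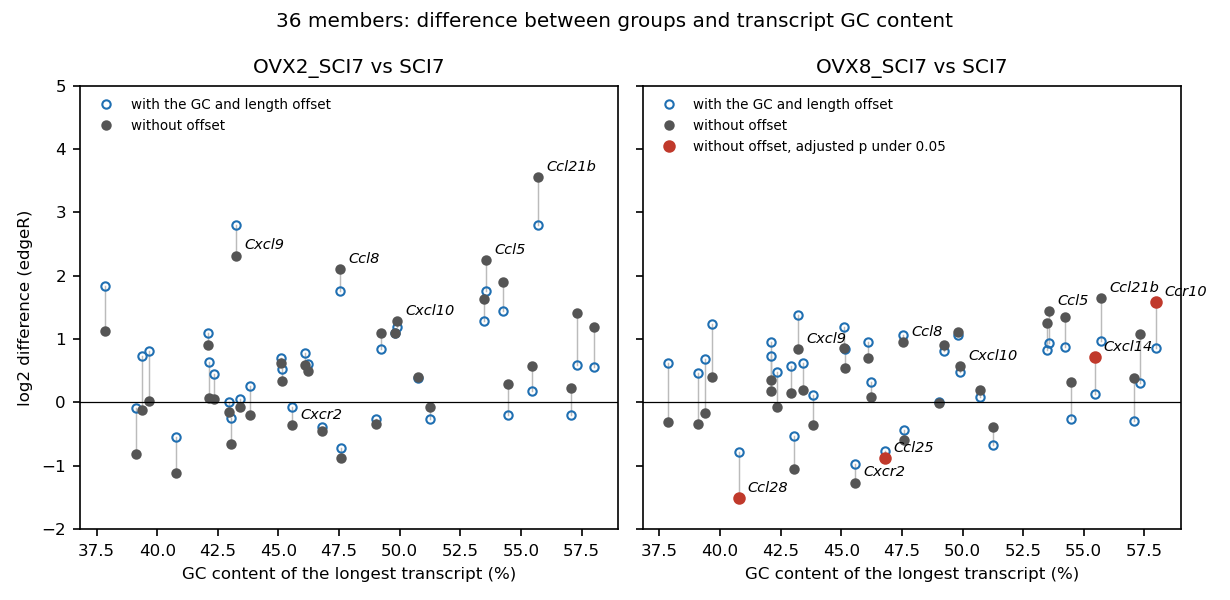
log2 difference of the 36 members tested (edgeR) against the GC content of their longest transcript, for OVX2_SCI7 (left) and OVX8_SCI7 (right) against SCI7. Filled points are the values without the offset, red where the adjusted p was under 0.05, and open circles are those with the GC and length offset. The 4 red points lie at 58.0% (Ccr10), 55.4% (Cxcl14), 46.8% (Ccl25) and 40.8% (Ccl28). Ccl21b, the highest filled point of the left panel, lies at 55.7% and was at 0 counts in 3 of 4 SCI7 libraries.

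The plot of differences against GC content sets the members beside the trend of the libraries. Across the 36 members, Spearman's rho between GC content and the log2 difference was 0.47 in OVX2_SCI7 and 0.58 in OVX8_SCI7 against SCI7. Across 15087 protein-coding genes it was 0.79 and 0.82. These are correlations across genes, which share libraries and are no independent replicates. With the offset the members' values were 0.04 and -0.08.

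Between the ovariectomised groups no member passed the test. edgeR called 0 of 36 members and 0.0% of all genes, and 1 member had an unadjusted p under 0.05 (2.78%), against 2.21% of all genes. DESeq2, both limma-voom fits and limma-trend called 0 members too, and DESeq2 called 0.0337% of all genes. The member under 0.05 was Cxcl9, lower in OVX8_SCI7 than in OVX2_SCI7 with a log2 difference of -1.47 (SE 0.47; p of 0.0086 by edgeR, adjusted p of 0.999). Its value with the offset was -1.43 (SE 0.44). Cxcl9 and Ccl25 were the members whose groups did not overlap (5.56%), both lower in OVX8_SCI7, against 1.32% of all genes. Ccl25 had 4.77, 4.97, 3.97 and 4.25 CPM in OVX2_SCI7, and its log2 difference was -0.42 (SE 0.21), or -0.39 (SE 0.28) with the offset. Cxcr2 had 1.86, 0.928, 4.02 and 1.14 CPM in OVX2_SCI7, which overlapped OVX8_SCI7. Cxcr2, Cxcl10 and Ccl8 followed among the 5 smallest in p, with log2 differences of -0.91 (SE 0.44), -0.71 (SE 0.35) and -1.15 (SE 0.63). With the offset these were -0.90 (SE 0.46), -0.71 (SE 0.29) and -0.70 (SE 0.51).

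A joint test over the 3 groups called 6 of 36 members (16.7%), against 14.8% of all genes. They were Cxcl9, Cxcl14, Ccr10, Ccl25, Ccl28 and Ccl5. None remained with the GC and length offset, and leaving out any 1 of several libraries, such as replicate 1 of SCI7, also left 0. With the offset, and without replicate 1 of SCI7, no gene of the whole table passed either.

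Among the pairs of ligand and receptor, most inflammatory members had overlapping groups. The Ccr2 ligands are the classical monocyte attractants. Ccl2 had 9.98, 5.16, 1.25 and 11.8 CPM in SCI7, 1.06, 2.51, 3.64 and 19.6 CPM in OVX2_SCI7 and 13.3, 9.65, 4.00 and 5.40 CPM in OVX8_SCI7. Each group thus held both high and low libraries, and replicate 4 of OVX2_SCI7 was the highest of the 12. Ccl7 had 4.44, 1.99, 1.36 and 3.84 CPM in SCI7, 0.530, 0.928, 2.09 and 7.00 CPM in OVX2_SCI7 and 5.82, 3.10, 1.85 and 2.11 CPM in OVX8_SCI7, with the same library highest. Ccl12, a mouse Ccr2 ligand, had 3.17, 2.31, 1.64 and 2.07 CPM in SCI7, 2.76, 2.23, 3.48 and 8.71 CPM in OVX2_SCI7 and 3.79, 2.36, 3.00 and 1.296 CPM in OVX8_SCI7. All 3 ligands were thus highest in replicate 4 of OVX2_SCI7. Ccr2 itself, on inflammatory monocytes, had 11.5, 14.1, 6.27 and 14.2 CPM in SCI7, 6.89, 4.59, 19.6 and 11.5 CPM in OVX2_SCI7 and 10.7, 7.14, 9.29 and 14.0 CPM in OVX8_SCI7. None of these genes passed the test in any pair of groups.

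Ccl3, a ligand of Ccr1, and Ccl4, both made by activated microglia and macrophages, also overlapped between groups. Ccl3 had 12.04, 3.17, 1.58 and 4.59 CPM in SCI7, 4.40, 5.34, 7.83 and 12.6 CPM in OVX2_SCI7 and 10.7, 4.78, 3.90 and 3.46 CPM in OVX8_SCI7. Ccl4 had 5.34, 1.88, 1.09 and 2.93 CPM in SCI7, 2.60, 2.83, 5.09 and 13.6 CPM in OVX2_SCI7 and 9.74, 4.28, 4.00 and 3.02 CPM in OVX8_SCI7. In both ligands replicate 1 was the highest of SCI7 and of OVX8_SCI7, and replicate 4 the highest of OVX2_SCI7. Ccr1, shared by myeloid cells, had 10.5, 11.8, 6.22 and 25.9 CPM in SCI7, 3.98, 3.48, 9.11 and 14.5 CPM in OVX2_SCI7 and 9.30, 7.79, 10.6 and 15.2 CPM in OVX8_SCI7. The highest value in each group was in replicate 4, although the labels do not tie same-numbered mice to each other. Ccl6 had 26.3, 25.5, 11.6 and 36.04 CPM in SCI7, 17.8, 12.5, 55.4 and 40.1 CPM in OVX2_SCI7 and 37.9, 27.2, 33.5 and 45.7 CPM in OVX8_SCI7. Ccl9 had 25.7, 21.2, 8.61 and 22.3 CPM in SCI7, 14.7, 11.8, 30.8 and 24.1 CPM in OVX2_SCI7 and 28.8, 17.6, 20.2 and 33.1 CPM in OVX8_SCI7. In both genes replicate 3 was lowest in SCI7 and highest in OVX2_SCI7, and no comparison passed the test. Ccl8, a monocyte attractant, had 0.740, 0.859, 0.491 and 0.454 CPM in SCI7, 0.424, 1.02, 4.98 and 4.56 CPM in OVX2_SCI7 and 1.37, 0.621, 1.70 and 1.296 CPM in OVX8_SCI7. Replicates 3 and 4 of OVX2_SCI7 stood above all other libraries.

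Cxcl12 and its receptors followed the same libraries. Cxcl12 had 96.7, 93.0, 87.5 and 137 CPM in SCI7, 90.2, 75.7, 278 and 103 CPM in OVX2_SCI7 and 104, 105, 109 and 159 CPM in OVX8_SCI7. Replicate 3 of OVX2_SCI7 stood far above the rest. Cxcr4, which responds to Cxcl12 on leukocytes and vascular cells, had 25.4, 33.5, 6.76 and 37.9 CPM in SCI7, 11.1, 16.0, 87.7 and 40.7 CPM in OVX2_SCI7 and 35.9, 32.1, 39.96 and 59.8 CPM in OVX8_SCI7. Ackr3, the atypical receptor that removes Cxcl12, had 26.9, 30.8, 17.3 and 37.3 CPM in SCI7, 14.3, 18.8, 32.9 and 22.8 CPM in OVX2_SCI7 and 22.8, 29.2, 24.0 and 35.3 CPM in OVX8_SCI7. In all 3 genes replicate 3 was the lowest of SCI7 and the highest of OVX2_SCI7.

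Cx3cl1, the neuronal membrane-bound chemokine, ran the other way. It had 95.5, 77.7, 122 and 68.8 CPM in SCI7, 122, 144, 74.8 and 85.7 CPM in OVX2_SCI7 and 104, 130.0, 139.5 and 100.4 CPM in OVX8_SCI7. Replicate 3 was the highest of SCI7 and the lowest of OVX2_SCI7. The summed level of 6 neuron markers had the same extremes, with 3191 CPM in that SCI7 library and 704 CPM in that OVX2_SCI7 library. Its part in the level of Cx3cl1 was not tested, and no comparison of Cx3cl1 passed the test.

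Cxcl16 had 30.4, 33.5, 11.5 and 34.2 CPM in SCI7, 26.5, 31.6, 114 and 62.9 CPM in OVX2_SCI7 and 58.1, 48.2, 61.4 and 68.2 CPM in OVX8_SCI7. All OVX8_SCI7 libraries were above those of SCI7, but the difference did not pass the test. Exons of Cxcl16 share 18.3% of their length with Zmynd15 on the opposite strand, so its counts could hold reads of that gene if strand was not used. Its receptor Cxcr6, of effector T cells, had 1.00, 1.24, 0.327 and 2.22 CPM in SCI7, 0.742, 0.650, 1.39 and 0.259 CPM in OVX2_SCI7 and 0.573, 0.776, 0.499 and 0.432 CPM in OVX8_SCI7, and the groups overlapped.

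Ligands of Cxcr2 were scarce at this time point. Cxcl1 had 0.317, 0.752, 0.0545 and 0.858 CPM in SCI7, 0.265, 0.278, 1.98 and 0.570 CPM in OVX2_SCI7 and 0.617, 0.776, 1.20 and 1.08 CPM in OVX8_SCI7. Cxcl2 had 0.264, 0.322, 0 and 0.757 CPM in SCI7, 0.106, 0.232, 2.25 and 0.311 CPM in OVX2_SCI7 and 0.132, 0.155, 0.2997 and 0.540 CPM in OVX8_SCI7. Cxcl5 had 0.475, 0.483, 0.273 and 2.02 CPM in SCI7, 0.318, 0.278, 6.11 and 0.518 CPM in OVX2_SCI7 and 0.529, 0.373, 1.35 and 0.432 CPM in OVX8_SCI7. All 3 ligands were highest in replicate 3 of OVX2_SCI7, and neither Cxcl1 nor Cxcl5 passed the test in any pair of groups. Cxcl2 had too few counts to be tested. The coding sequences of Cxcl2 and Cxcl3 are 89.7% identical, so reads can be split between them and both values are uncertain.

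Ccl19 and Ccl21a, the ligands of the lymph node homing receptor Ccr7, were led by the same group. Ccl19 had 0.898, 1.02, 1.20 and 1.26 CPM in SCI7, 1.22, 1.81, 4.50 and 4.20 CPM in OVX2_SCI7 and 2.73, 2.39, 3.00 and 1.13 CPM in OVX8_SCI7. Ccl21a had 0.106, 0.269, 0 and 0.202 CPM in SCI7, 0, 0.789, 11.9 and 0.518 CPM in OVX2_SCI7 and 0.573, 0.155, 0.250 and 0.162 CPM in OVX8_SCI7, so replicate 3 of OVX2_SCI7 alone was high. The genes Ccl21a, Ccl21b and Ccl21d are at least 99.5% identical in coding sequence, so the split of reads among them is uncertain. Ccr7, on dendritic cells and T cells, had 0.211, 0.645, 0.109 and 0.151 CPM in SCI7, 0.583, 0.603, 1.29 and 1.04 CPM in OVX2_SCI7 and 0.970, 0.528, 0.649 and 0.540 CPM in OVX8_SCI7, and did not pass the test. Cxcl13 and Cxcr5, the pair that organises B cells in follicles, were near the counting limit. Cxcl13 had 0.317, 0.215, 0.436 and 0 CPM in SCI7, 0.530, 0.186, 0.375 and 0.259 CPM in OVX2_SCI7 and 0.353, 0.124, 0.2997 and 0.216 CPM in OVX8_SCI7. Cxcr5 had 0, 0, 0.164 and 0 CPM in SCI7, 0.0530, 0.0464, 0.0536 and 0.259 CPM in OVX2_SCI7 and 0.0881, 0, 0 and 0.108 CPM in OVX8_SCI7. Neither had enough counts to be tested.

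The heat map of 35 members shows these library differences across the family. Replicate 3 of OVX2_SCI7 was the highest of all 12 libraries in 14 of 36 members, and replicate 3 of SCI7 the lowest of its group in 24. Summed monocyte and macrophage markers (8 genes) were 369 CPM in that SCI7 library against 861 to 2514 CPM in the others of its group, and 330.3, 662, 2783 and 1653 CPM in the OVX2_SCI7 libraries. Fibroblast and meningeal markers, given above, were also highest in replicate 3 of OVX2_SCI7. Of the 8 monocyte and 6 fibroblast markers, 0 passed edgeR's test in any pair of groups, and 1 (a monocyte marker, between the ovariectomised groups) had an unadjusted p under 0.05. Over all genes, 0.0% passed and 32.5% had such a p in OVX2_SCI7 against SCI7. For OVX8_SCI7 against SCI7 these shares were 27.5% and 43.2%, and between the ovariectomised groups 0.0% and 2.21%. The summed levels of these markers were uneven within groups. Their part in the levels of Ccr2, Cxcr4, Cxcl12, Ccl6, Ccl19 and Ccl21a was not tested.

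**Figure D4:**
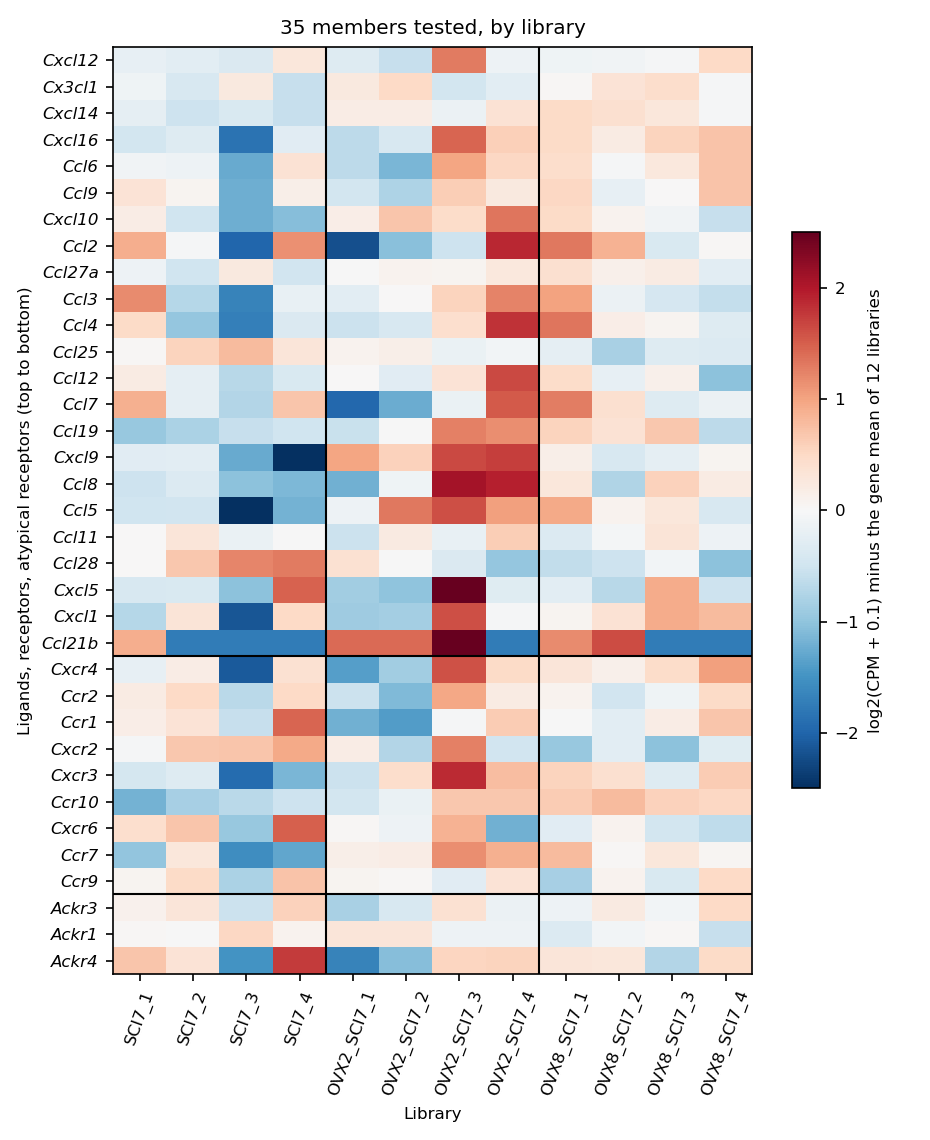
log2(CPM + 0.1) of 35 of the members tested minus each gene's mean of 12 libraries, by library in columns, with ligands, receptors and atypical receptors from top to bottom and black lines between groups of libraries and of genes. Red columns stand out at replicates 3 and 4 of OVX2_SCI7 and blue ones at replicate 3 of SCI7 and replicates 1 and 2 of OVX2_SCI7. Ccl25, Ccl28, Cx3cl1 and Ackr1 are among the members that do not share that order.

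No tested atypical receptor passed in any pair of groups. Ackr1 had 19.9, 19.3, 28.0 and 20.6 CPM in SCI7, 24.1, 24.2, 17.96 and 17.8 CPM in OVX2_SCI7 and 15.4, 18.7, 19.9 and 13.01 CPM in OVX8_SCI7. It shares 25.7% of its exon length with Cadm3 on the same strand, a neuronal adhesion gene, so part of its counts could come from Cadm3 transcripts. Ackr4, which clears Ccl19 and Ccl21, had 2.59, 1.99, 0.491 and 5.45 CPM in SCI7, 0.424, 0.696, 2.30 and 2.33 CPM in OVX2_SCI7 and 1.94, 1.92, 0.899 and 2.21 CPM in OVX8_SCI7. Ackr2, which clears inflammatory Ccl ligands, had 0.158, 0.161, 0.0545 and 0.454 CPM in SCI7, 0.0530, 0.186, 0.643 and 0.155 CPM in OVX2_SCI7 and 0.176, 0.186, 0.2997 and 0.432 CPM in OVX8_SCI7 and too few counts to be tested. Within each gene the 3 groups overlapped.

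The remaining 24 members did not have enough counts to be tested. Of these, 11 had at most 3 counts in every library and Ccl26 had none in any. They include receptors of T helper and regulatory T cells (Ccr4, Ccr6 and Ccr8) and mucosal ligands (Ccl20 and Cxcl17), none above 0.152 CPM. At this depth such transcripts were not detectable above counting noise. Ccr3, the eosinophil receptor, reached 0.594 CPM and Xcr1, of cross-presenting dendritic cells, 0.674 CPM.

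Genes outside the naming rule but of the same pathway were compared as listed groups. Of 11 chemokines and receptors with other symbols, 2 rose in OVX8_SCI7 against SCI7 (18.2%) and 0 fell, where 27.5% of all genes were called. These were Cd74, the invariant chain that also binds Mif, with 39.5 CPM ± 18.7 in SCI7 and 121 CPM ± 14.1 in OVX8_SCI7 (SD, n = 4 each; edgeR adjusted p of 0.0280), and Mif, with 36.1 CPM ± 5.63 and 67.2 CPM ± 22.7 (SD, n = 4 each; adjusted p of 0.0469). The median log2 difference of the 11 was 0.58, against 0.01 over all genes, or 0.28 against -0.06 with the offset. Of 39 genes of signalling downstream of chemokine receptors, 6 rose and 5 fell, together 28.2% and so near the 27.5% of all genes. Examples are Grk2, a kinase that desensitises these receptors (111 CPM ± 6.30 in SCI7 and 171 CPM ± 16.0 in OVX8_SCI7), and the small GTPase Rap1a, which acts on integrins (155 CPM ± 41.4 and 75.4 CPM ± 13.8; SD, n = 4 each). Of 18 tested genes of the NF-kappaB pathway, 5 rose and 2 fell (38.9% in all). The first were the subunits Nfkb1, Rela and Relb and the inhibitors Nfkbia and Nfkbib. The second were Ikbkg and Chuk, which encode subunits of a kinase complex. Of 9 tested receptors for other chemoattractants, Fpr2, a formyl peptide receptor, fell from 1.04 CPM ± 0.153 to 0.390 CPM ± 0.181 (SD, n = 4 each; adjusted p of 0.0354). Besides those already named, Cx3cr1, Prex1, S1pr4 and Ptafr were among the 3 smallest p-values of their lists, and of these Prex1 rose, from 118 CPM ± 21.3 to 201 CPM ± 16.6 (SD, n = 4 each). No gene of the 4 lists passed edgeR's test with the GC and length offset, and none did without replicate 2 of OVX8_SCI7. Over all genes these fits called 0 of 17820 and 0 of 18130 in this comparison.

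In OVX2_SCI7 against SCI7 edgeR called 0 genes of these 4 lists and 0.0% of all genes. An unadjusted p under 0.05 was found for 3 of 11 genes with other symbols, 17 of 39 signalling genes, 1 of 9 other receptors and 8 of 18 NF-kappaB genes, against 32.5% of all genes. Among the smallest p-values were those of Rarres2, Cd74 and Mif, of Prex1 and Jak2, of S1pr4, Ptafr and C5ar2, and of Nfkbia, Chuk and Relb in the same order of lists. DESeq2 called 3, 11, 0 and 4 genes of these lists, and 20.7% of all genes. Between the ovariectomised groups 0 genes of the 4 lists passed edgeR's test or DESeq2, and 0 had an unadjusted p under 0.05. Over all genes these shares were 0.0%, 0.0337% and 2.21%. Small p-values there belonged to Cx3cr1, Cmklr1 and Gpr182, to Gng2 and Tiam1, to C5ar1, Fpr2 and S1pr1, and to Chuk, Il1b and Vcam1.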

How the data were processed

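Bulk RNA sequencing of 12 spinal cord lesions (4 each of SCI7, OVX2_SCI7 and OVX8_SCI7, grouped by title) was analysed. Per the submitters' processing notes, reads were handled with fastp 0.23.4, HISAT2 2.2.1 and RSEM 1.3.3 on GRCm39. DESeq2 1.42.0, edgeR and limma are listed there too. The library kit, RNA selection and use of strand are not given in the sources used here. The authors deposited RSEM expected counts, TPM and FPKM of 57180 genes, of which 525 have no symbol, and 9 further value columns of each table were not used. The labels call the samples biological replicates.

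Expected counts were rounded, filtered (filterByExpr) and scaled by TMM, and all 12 libraries were fitted in edgeR 4.0.16 (R 4.3.3) with the robust quasi-likelihood test. P-values were adjusted by Benjamini-Hochberg over 17820 genes, with a threshold of 0.05. SE was the log2 difference divided by the square root of F. CPM were made from these counts, and deposited TPM served to compare genes per length. The script was tested on simulated data. Alternatives were DESeq2 1.42.0 and limma 3.58.1 (voom, and trend on log2(TPM + 1) or log2(TPM + 0.1)), DESeq2 size factors, no filter, stricter filtering (at least 1 CPM in 4 or more libraries, mean count of 50 or more), the replicate number as a block, an offset for GC content and length fitted on genes of at least 5 CPM, fewer libraries, FPKM for levels and 1 strand for motifs. The offset used GENCODE M21 transcripts, an earlier build, which covered 97.9% of genes tested. Identity between members was taken from their coding sequences.

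The members, lists and alternatives were chosen with earlier results of these data known. Values in every library are given for members called or among the 5 smallest p-values of a pair of groups, the 8 highest by TPM, and the fixed ligand and receptor pairs. For other pathway genes, counts and the 3 smallest p-values are named. Values of 1 member and of 1 pathway gene are not reported here, although both are in the counts. Libraries of a group differed by more than counting noise, and same-numbered mice were not treated as pairs.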

Additional observations from a re-analysis of the deposited data

Results flagged for a closer look

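In 12 of 111 groups of 4 values (37 members in 3 groups), 1 library stood apart from the other 3 by more than Dixon's 95% critical value for the gap over the range. Chance alone gives about 1 in 20 such cases, and members measured in the same library are not independent. Replicate 3 of OVX2_SCI7 held 4 of them, each the highest of its group: Cxcl12 at 278 CPM (others 75.7 to 103 CPM), Ccl21a at 11.9 CPM (others up to 0.789 CPM), Cxcl5 at 6.11 CPM (others 0.278 to 0.518 CPM) and Cxcl2 at 2.25 CPM (others 0.106 to 0.311 CPM). The same library had the highest summed fibroblast and meningeal markers, 27346 CPM, whose part in these values was not tested.

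Replicate 3 of SCI7 held 3. Ackr1 was high there at 28.0 CPM (others 19.3 to 20.6 CPM), Cxcl16 low at 11.5 CPM (others 30.4 to 34.2 CPM), and Cxcr5 stood at 0.164 CPM where the others had none. In replicate 4 of OVX2_SCI7, Ccl2 reached 19.6 CPM (others 1.06 to 3.64 CPM) and Cxcr5 0.259 CPM (others 0.0464 to 0.0536 CPM). Both Cxcr5 values rest on a handful of counts. Cxcl5 was high in replicate 4 of SCI7 at 2.02 CPM (others 0.273 to 0.483 CPM) and in replicate 3 of OVX8_SCI7 at 1.35 CPM (others 0.373 to 0.529 CPM). Cxcl12 was high in replicate 4 of OVX8_SCI7 at 159 CPM (others 104 to 109 CPM).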

How the results depend on the processing

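The number of members called depended on the fit. For OVX8_SCI7 against SCI7 (4 of 36 called) it was 8 of 36 with DESeq2 and 12 of 36 with limma-voom and quality weights. It was 9 of 34 from the 8 libraries of the comparison and 2 of 20 with the stricter filter, which left fewer members to test. Over all genes these fits called 6403 of 17820, 11219 of 17820, 7426 of 17288 and 4628 of 14370, in the same order. With the GC and length offset it was 0, also with the replicate block in that fit, and 1 with that offset in DESeq2. Over all genes these fits called 0, 1 and 820 of 17820. Without replicates 1 and 2 of OVX2_SCI7 it was 10 of 40, or 1 of 40 with the offset. Leaving out single libraries gave 0 of 39 (without replicate 2 of OVX8_SCI7) to 9 of 39 (without replicate 1 of OVX2_SCI7). Over all genes it was 7720 of 18426, or 771 with the offset, and 0 of 18130 to 6710 of 18057 without these single libraries. For OVX2_SCI7 against SCI7 (0 of 36 called) it was 10 of 36 with DESeq2, 2 of 36 with limma-voom and 18 of 36 with quality weights. It was 1 of 20 with the stricter filter and 4 of 36 with the offset in DESeq2. Without replicates 1 and 2 of OVX2_SCI7 it was 14 of 40, and 7 of 40 with the offset as well. Over all genes the first 5 fits called 3683, 893 and 9694 of 17820, 1144 of 14370 and 452 of 17820, in the same order. Without replicates 1 and 2 of OVX2_SCI7 it was 7141 of 18426 genes, or 1669 with the offset. Leaving out single libraries gave 0 to 12, the 12 of 39 without replicate 1 of OVX2_SCI7. Over all genes that fit called 6264 of 18057, and the others without a single library at most 4. In the joint test (6 of 36 called) it was 2 of 20 with the stricter filter and 18 of 36 with quality weights. It was 2 of 36 with limma-trend at either pseudocount and 0 with the offset (with or without the block). Without replicates 1 and 2 of OVX2_SCI7 it was 15 of 40, and without single libraries 0 to 11. Over all genes the joint test called 2781 of 14370, 11455 of 17820, and 809 or 643 of 17820, in this order. It then called 0 of 17820, 7572 of 18426, and 0 to 6058 without single libraries. Between the ovariectomised groups all 27 alternatives gave 0, and at most 8 genes of the whole table. With the replicate block, the numbers of calls were 4, 0 and 0 in the 3 pairwise comparisons and 0 in the joint test. Over all genes they were 3390, 0, 0 and 0 of 17820. Same-numbered mice deviated together in some pairs and not in others (12 pairs, correlations from -0.69 to 0.57, 5 of them over 0.1). The number was not taken to pair mice. Directions of the 15 log2 differences given were kept except in 2, both without replicates 1 and 2 of OVX2_SCI7 and with the offset: Cxcl14 in OVX2_SCI7 against SCI7 (-0.11) and Ccl25 between the ovariectomised groups (0.0046). The cause was not tested. Sums and levels moved by less than their spread. On 1 strand the NF-kappaB pattern was in 7 member promoters as before and the interferon pattern in 4, against 4.77% of all promoters. Counting noise limits Ccr10, Ccl28, Cxcl9 and Ccl5, some of whose libraries hold only a few counts.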
